A study of Mus musculus with 36 samples.

Results

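The chaperone and protein folding families were taken as every gene on the array whose symbol begins with Hsp followed by a digit or by a, b or h, with Dnaj, with Cct2 to Cct8, with Pdia or with Fkbp and a digit, together with Tcp1. Hspa5, Hspd1, Hspe1 and Dnajc3 were kept out of this list. It held 72 genes, measured by 116 probes, of the 9930 genes with a named probe. The HSP90 family had 2 of these genes, the HSP70 and HSP110 families 8, the small heat shock proteins 7, DNAJA 3, DNAJB 9, DNAJC 22, the cytosolic chaperonin and its relatives 10, the protein disulfide isomerases 3 and the FKBP peptidyl-prolyl isomerases 8. They were picked by symbol alone, though the families were chosen with earlier results of these data known. Hsp90ab1, Hspa8, Pdia3 and Fkbp5, all well-known members of these families, were not analysed here.

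The arrays held RNA of NIH3T3 cells, an immortal mouse embryo fibroblast line, that carry an Erbb2 transgene under tet-off control. Erbb2 is a receptor tyrosine kinase, and tetracycline is meant to shut the transgene down; no probe carried the name Erbb2, so the shutdown was not analysed here. Channel 1 held RNA of Erbb2 cells that were untreated, or kept with tetracycline for 1, 2, 4, 12 or 24 h or for 3, 5 or 7 days, with 4 deposited arrays in each of the 9 groups. Untreated Erbb2 cells supplied the RNA of channel 2 on all 36 arrays, so every cell in the series carries the transgene. The label protocols instead describe organs and pooled control animals as the reference, and the design text mentions 2 different untreated lines, so what the ratios were taken against is not fully settled. The number of clones behind the line is not given in the sources used here, and neither is whether replicates were separate cultures, so p-values measure only the spread between these arrays.

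Values are log2 ratios, centred on the median of each array, in which a positive value is read as more RNA in channel 1 than in channel 2. The files do not state the numerator. If it was the other channel, every sign below would be the opposite. Arrays of replicates 1 and 2 carried channel 1 in Cy5, those of replicates 3 and 4 in Cy3, and the Cy3 arrays were multiplied by -1. Apart from a constant, untreated replicates 1 and 2 held the same values, so they counted as 1 array (untreated replicate 1), which left 35 arrays. The number of features with a value ran from 17341 to 19945 by array. The interquartile range of all values was 0.699 to 1.42 at 3 to 7 days and 0.357 to 0.504 at 1 to 24 h, against 0.492 to 0.7 in untreated cells, so late arrays were the most spread. A ratio gives no level, so fibroblast identity could not be checked from markers. Of 8 fibroblast markers, limma called 4 higher and 3 lower at late than at early times, and of 8 markers of epithelial, blood or endothelial cells it called 1, Cdh5, lower; their part in the results below was not tested. Fewer cells of a kind and less RNA per cell cannot be told apart in such bulk RNA.

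Chaperones bind unfolded or partly folded proteins. HSP70 proteins work with J-domain (DNAJ) partners that bring them substrates and stimulate their ATPase, HSP90 matures kinases and receptors, and the ring-shaped chaperonin TRiC, built of Tcp1 and the Cct subunits, folds actin and tubulin inside its chamber. Protein disulfide isomerases and several FKBP proteins act on disulfide and proline bonds in the endoplasmic reticulum (ER). Erbb2 itself is a known client of HSP90.

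The comparison that showed the most was that of late times (3, 5 and 7 days) with early times (1, 2 and 4 h), which uses no untreated array. In it 13 of 67 measured members passed limma's test at an adjusted p under 0.05, 11 lower and 2 higher at late times. Over all 8234 genes tested the share called was 6.68%, with 4.25% lower and 2.43% higher, against 19.4% of the members. The 11 members that were lower lay between -1.21 and -0.46, with a median of -0.69. Those lower were the chaperonin subunits Cct5, Tcp1, Cct3, Cct2, Cct8 and Cct7, the mitochondrial HSP70 Hspa9, the cytosolic Hsp90aa1, the J-domain co-chaperone Dnaja1, and the isomerases Fkbp1a and Fkbp3. Those higher were the ER proteins Hsp90b1 and Fkbp9. Of the 13 called members 7 rest on 1 probe each, namely Cct2, Cct3, Cct5, Cct7, Cct8, Dnaja1 and Hsp90b1. The median over the 67 members was -0.07, against -0.002 over all genes, and 39 of the members lay below 0. In either direction, the median size of a member's difference was 0.22, and 36 of the 67 lay at 0.2 or more.

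**Figure D1:**
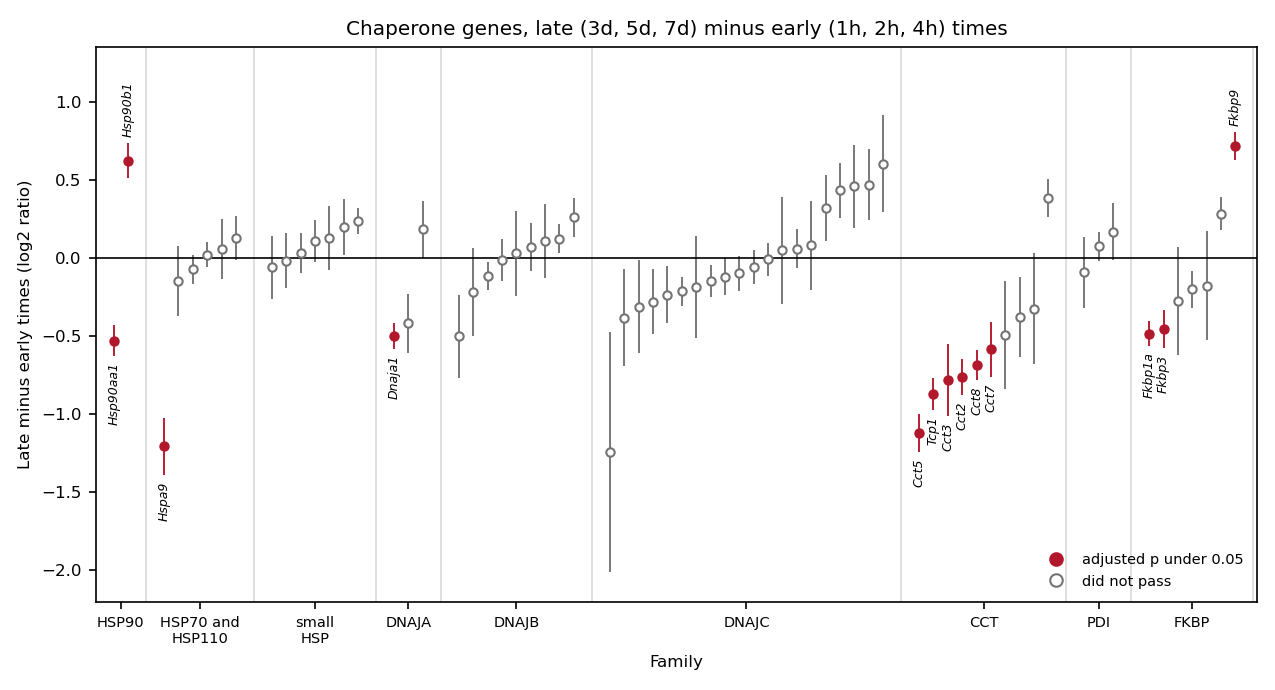
Late minus early difference (log2 ratio, vertical axis) of the 67 tested members, grouped by family on the horizontal axis and sorted within each. Points are limma estimates and bars are 1 SE; filled points are the 13 members called, of which 6 belong to the chaperonin family.

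The chaperonin family held 6 of the 13 calls, all lower at late times, among its 10 measured members, and its median was -0.64. The complex has 8 different subunits, and all 8 had a probe. Cct5 on the 12 late arrays ran from -1.46 through a median of -0.60 to 0.16, and on the 12 early arrays from -0.13 through 0.45 to 1.04. The groups overlapped in a narrow zone, with 11 of the 12 late arrays below the lowest early array. The difference was -1.12 (SE 0.12, limma adjusted p = 8.66e-08), 2.18-fold more RNA at early times. Tcp1, the alpha subunit, ran from -0.77 through -0.26 to 0.34 on late arrays and from 0.20 through 0.60 to 1.07 on early arrays. Here too 11 of the 12 late arrays lay below every early array, with a difference of -0.87 (SE 0.10, limma adjusted p = 3.5e-07).

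The readings of Tcp1 are set out by time, though against untreated it was called at no single time. The untreated arrays read -0.08, 0.42 and 0.48, those of 1 h 0.53, 0.20, 0.31 and 0.25, those of 2 h 0.96, 1.07, 0.59 and 0.87, and those of 4 h 0.77, 0.55, 0.64 and 0.60. At 12 h the arrays read 0.22, 0.25, 0.18 and 0.24 and at 24 h -0.09, -0.06, 0.11 and 0.04. At 3 days they read -0.71, -0.48, 0.15 and 0.33, at 5 days -0.30, -0.34, -0.25 and -0.77, and at 7 days -0.17, -0.27, -0.24 and -0.09. All 4 arrays of 2 h lay above all other arrays except 3 of 4 h. Every array of 5 and 7 days lay below every untreated array, though narrowly, at -0.09 against -0.08. The share of all genes that separate from the untreated arrays in this way was not counted, here or for the genes below. At 3 days the Cy5 arrays were low and the Cy3 arrays were not, so the mean of -0.18 ± 0.50 (SD, n = 4) says little. All 3 probes of Tcp1 were lower at late times, from -1.07 to -0.77.

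Cct5 followed a like course. It read 0.11, 0.35 and 0.46 on the untreated arrays, 0.42, 0.08, 0.30 and -0.13 at 1 h, 1.04, 0.74, 0.44 and 0.65 at 2 h and 0.68, 0.71, 0.32 and 0.45 at 4 h. At 12 h it read -0.04, 0.05, -0.10 and 0.02 and at 24 h -0.11, 0.11, -0.08 and -0.47. It then read -1.04, -0.93, -0.61 and -0.60 at 3 days, -0.54, -0.35, 0.16 and -0.60 at 5 days and -0.23, -0.99, -0.56 and -1.46 at 7 days. The arrays of 3 and 7 days all lay below every untreated array, while 1 array of 5 days reached the range of the untreated ones.

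Of the other subunits, Cct2 (beta) was lower at late times by a difference of -0.76 (SE 0.12, limma adjusted p = 3.05e-05), with arrays from -0.88 through -0.44 to 0.25 late and from -0.01 through 0.32 to 0.77 early. Cct8 (theta) had a difference of -0.69 (SE 0.10, limma adjusted p = 7.17e-06), with arrays from -0.85 through -0.21 to 0.21 late and from 0.06 through 0.43 to 1.00 early. In both, all 12 late arrays lay below the median of the early ones. Cct3 (gamma) at -0.78 (SE 0.23, limma adjusted p = 0.0372) and Cct7 (eta) at -0.58 (SE 0.18, limma adjusted p = 0.0423) passed narrowly. Leaving out 1 array at a time ended the call of Cct3 for 12 arrays, with values of -0.79 to -0.69 and adjusted p of 0.0508 to 0.0737, and that of Cct7 for 19 arrays, with values of -0.60 to -0.51 and adjusted p of 0.0516 to 0.083. Without 3d replicate 1, 2 or 3 Cct3 had too few values to be tested. The difference of Cct7 came mainly from 3 days, at -1.05 with that time alone and -0.35 (limma adjusted p = 0.398) with 5 and 7 days, and its group means were -0.80 ± 0.75, -0.15 ± 0.49 and -0.05 ± 0.21 at 3, 5 and 7 days (SD, n = 4 each). The call of Cct7 also ended within either dye and with values not centred, at adjusted p of 0.143 to 0.227, and that of Cct3 with 3 days alone (-0.55, adjusted p = 0.452), with array weights (adjusted p = 0.0715) and in the Cy5 arrays (adjusted p = 0.165). Cct3 was already spread widely at 24 h, where its arrays read -1.01, -2.13, -0.06 and 0.58.

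The remaining 2 subunits of the ring did not pass. Cct4 (delta) had a difference of -0.50 (SE 0.35, limma adjusted p = 0.541) and very uneven arrays, with 3.53 on 3d replicate 4 and -2.74 on 5d replicate 1. Cct6a (zeta) had the opposite sign, 0.38 (SE 0.12, limma adjusted p = 0.0589), and at 3 days its arrays read 1.27, 0.44, 1.20 and 0.76 while at 5 days they read -0.67, 0.55, 0.11 and -0.14. Cct6b, a testis form of the zeta subunit, and Cct8l1, a relative of Cct8, lay at -0.38 (SE 0.26) and -0.32 (SE 0.36) and did not pass. Counted per array, 3 to 7 of the 8 subunits lay above 0 on the untreated arrays, 6 to 7 at 1 h, 6 to 7 at 2 h, 5 to 7 at 4 h, 4 to 6 at 12 h, 3 to 5 at 24 h, 1 to 5 at 3 days, 0 to 4 at 5 days and 2 to 3 at 7 days. The untreated arrays thus spanned the whole range of 1 to 24 h, and 3 days overlapped 4, 12 and 24 h.

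**Figure D2:**
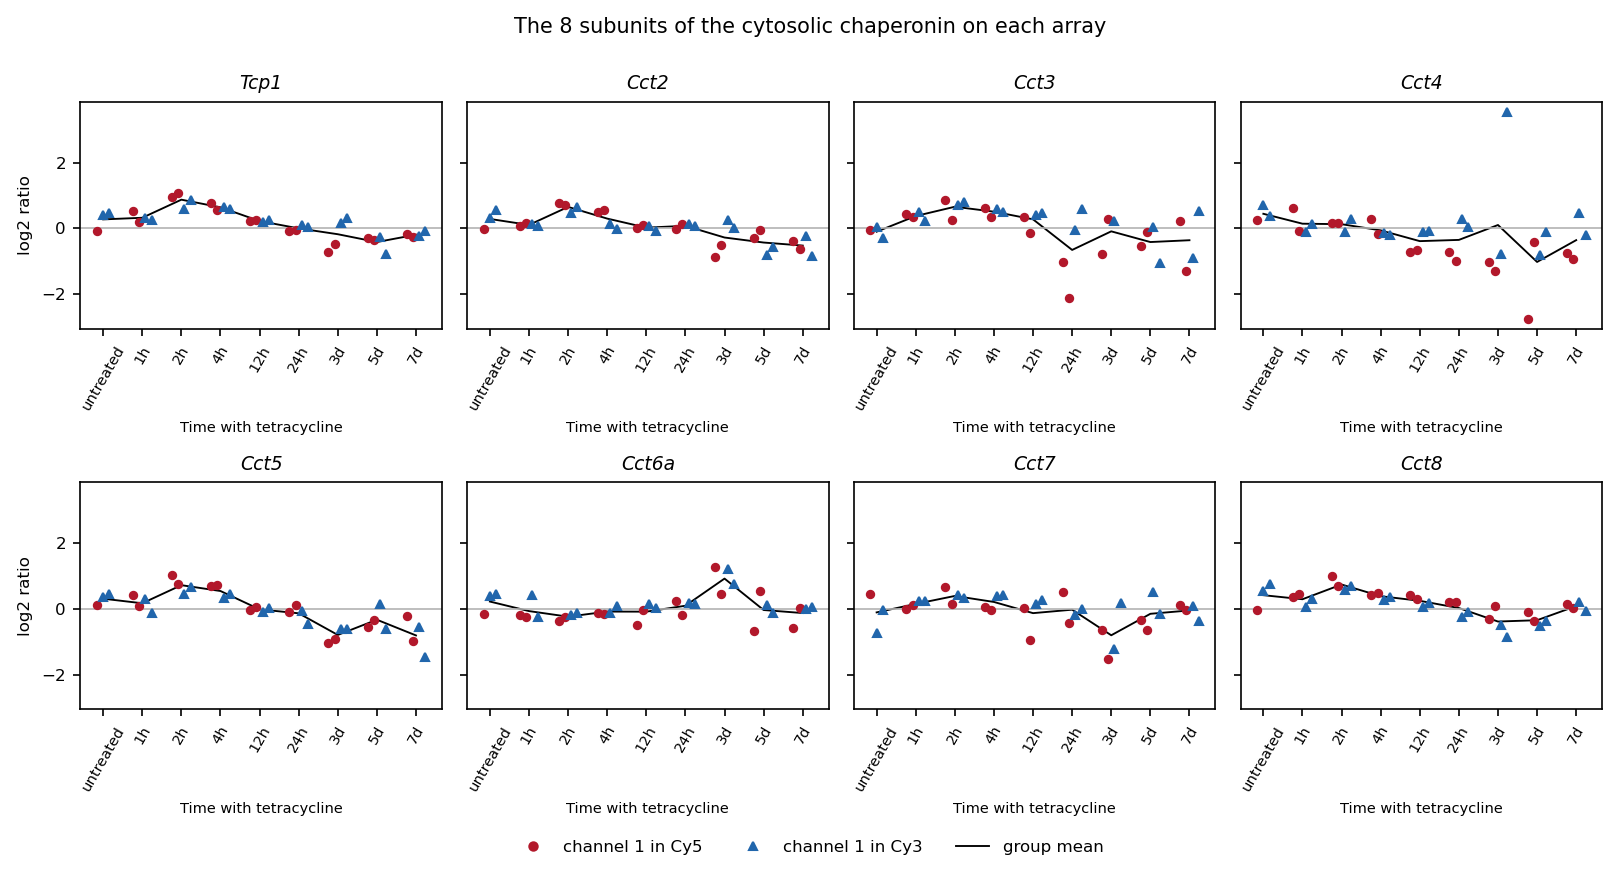
Log2 ratio (vertical axis) of the 8 subunits of the cytosolic chaperonin on each of the 35 arrays, by time with tetracycline (horizontal axis, untreated at the left). Circles are arrays with channel 1 in Cy5, triangles those in Cy3, and the line joins group means; Tcp1, Cct2, Cct5 and Cct8 are highest at 2 h and lie near 0 at 24 h.

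Members that move together may share promoter letters, so the RefSeq promoters (GRCm38.p6, 250 bases before to 50 after each annotated start) of 62 of the 72 members were searched. A gene with several starts counted as holding a motif if any of its promoters did. The heat shock element, the binding motif of heat shock factors, was searched as GAANNTTC, which reads the same on both strands. It occurred in the promoters of 15 of the 62 members, which is 24.2%, against 7.24% of the 8012 genes of the array in the table and 7.86% of all 32851 promoters. The ER stress response element, searched as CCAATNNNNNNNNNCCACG on both strands, occurred in 2 of the 62 members, which is 3.23%, against 0.187% of the array's genes and 0.119% of all promoters. No member held both motifs. A match is a description of letters and not of binding.

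The promoters of the chaperonin subunits with the clearest change follow, with matches in capitals. Where a gene had several starts, here and below, the promoter with the most matches was picked for printing. The promoter of Tcp1 at chr17:12916079-12916378 (plus strand) and that of Cct5 at chr15:31601797-31602096 (minus strand, 1 of 2 starts in the table) hold neither motif as searched. The promoter of Cct5 does hold ttccagaa, in the order that was not searched. That of Cct2 at chr10:117063326-117063625 (minus strand, 1 of 2 starts) holds a heat shock element that begins 42 bases before that start. This start lies inside the annotated gene, whose outer end on that strand is at 117063852, so the element does too.
Tcp1: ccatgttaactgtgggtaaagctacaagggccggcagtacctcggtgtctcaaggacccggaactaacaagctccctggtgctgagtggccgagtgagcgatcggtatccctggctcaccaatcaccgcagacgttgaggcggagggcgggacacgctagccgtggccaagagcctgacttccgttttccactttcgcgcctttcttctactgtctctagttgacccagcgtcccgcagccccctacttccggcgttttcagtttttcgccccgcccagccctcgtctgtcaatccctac
Cct5: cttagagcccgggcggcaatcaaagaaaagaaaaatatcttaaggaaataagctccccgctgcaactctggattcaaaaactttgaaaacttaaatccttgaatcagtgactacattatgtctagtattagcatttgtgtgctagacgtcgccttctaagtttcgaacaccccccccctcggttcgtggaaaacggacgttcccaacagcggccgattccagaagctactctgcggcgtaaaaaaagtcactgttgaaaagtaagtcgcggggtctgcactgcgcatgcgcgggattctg
Cct2: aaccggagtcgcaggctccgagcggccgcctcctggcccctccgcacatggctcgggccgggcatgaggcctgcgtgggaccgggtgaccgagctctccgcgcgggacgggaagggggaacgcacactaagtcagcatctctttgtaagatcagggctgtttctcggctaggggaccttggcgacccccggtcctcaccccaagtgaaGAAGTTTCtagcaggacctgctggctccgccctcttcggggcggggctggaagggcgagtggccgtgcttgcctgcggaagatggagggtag

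Among the cytosolic partners of HSP90 and HSP70, Hsp90aa1, the stress-inducible HSP90 isoform, was lower at late times. Its late arrays ran from -0.56 through -0.06 to 0.54 and its early arrays from 0.24 through 0.45 to 0.83, with 11 of 12 late arrays below every early array and a difference of -0.53 (SE 0.10, limma adjusted p = 4.11e-04). Its 2 probes disagreed, with differences of -1.18 and 0.12, so the call belongs to the mean of unlike probes. It ended in the Cy3 arrays, at -0.35 (limma adjusted p = 0.0801), and with values not centred (adjusted p = 0.0596); with cDNA probes, related transcripts can also share signal, which was not tested. Dnaja1, a J-domain partner of cytosolic HSP70, ran from -0.34 through -0.06 to 0.72 on late arrays and from 0.25 through 0.48 to 0.79 on early arrays. The difference was -0.50 (SE 0.08, limma adjusted p = 1.05e-04), and 10 of 12 late arrays lay below every early array. In the Cy3 arrays alone it was -0.39 (limma adjusted p = 0.0653).

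Dnaja1 had already left its early values within the first day. It read 0.03, 0.21 and 0.05 on the untreated arrays, 0.44, 0.43, 0.52 and 0.28 at 1 h, 0.61, 0.79, 0.42 and 0.65 at 2 h and 0.50, 0.64, 0.25 and 0.45 at 4 h. At 12 h it read 0.14, -0.14, -0.01 and -0.03 and at 24 h 0.00, 0.03, -0.01 and 0.13. Every array of 1 to 4 h thus lay above every untreated array and above every array of 12 and 24 h. The share of all genes that separate so was not counted. At 3 days Dnaja1 read -0.30, -0.34, 0.19 and -0.04, at 5 days -0.17, -0.32, -0.08 and -0.23, and at 7 days 0.14, 0.72, 0.03 and 0.40. With 12 and 24 h in place of the late times, the difference of Dnaja1 was -0.49 (limma adjusted p = 0.00462), and Tcp1 at -0.50 and Fkbp1a at -0.41 were the other 2 of the 3 members called, against 0.68% of all genes.

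The stress-inducible HSP70 genes gave little. Hspa1b had group means above 0 at each of the times measured, with a mean at 2 h of 0.62 (SE 0.12, limma adjusted p = 0.00315 against 0). Its untreated mean was also above 0, at 0.19 ± 0.21 (SD, n = 3), and against untreated it did not pass at any time, with 0.41 at 2 h (SE 0.19, limma adjusted p = 0.757). It had no value at 5 and 7 days, where its probe row was left out. Hspa1a had a value on 1 array of 3 days only and was not tested between late and early times. Hspa4, a nucleotide exchange factor of the HSP110 group, differed by -0.07 (SE 0.09), Hsph1, another such factor, by 0.06 (SE 0.19) and Dnajb1, the J-domain partner induced by heat, by 0.07 (SE 0.15). The 3 probes of Hspa4 disagreed, at -0.66, 0.13 and 0.30, so its value is a mean of unlike probes. Hspa12b, a divergent HSP70 gene, lay at 0.02 (SE 0.08). None of these 4 passed, and their adjusted p-values by limma were 0.764 to 0.946.

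The small heat shock proteins, which hold unfolded proteins without ATP, had 0 calls of 7 measured members between late and early times, with differences from -0.06 to 0.24. Hspb1 lay at 0.11 (SE 0.14), and Hspb6 at 0.24 (SE 0.08, limma adjusted p = 0.097). The DNAJB family had 0 calls of 9, with differences from -0.50 for Dnajb8 to 0.26. The DNAJC family, the largest and most varied of the J-domain groups, had 0 calls of 20. Its differences ran from -1.24 to 0.60, with Dnajc28 at 0.43 (SE 0.18) and Dnajc2, a ribosome-associated J-domain protein, at -0.21 (SE 0.09). Of the DNAJA family Dnaja4 missed the threshold at -0.42 (SE 0.19, limma adjusted p = 0.247). The SEs in these families reached 0.77, so differences of the size seen for Hsp90aa1 could not be detected for every member.

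Members with and without the heat shock element as searched can be set side by side. Of 12 tested members with it, 2 (Cct2 and Dnaja1) were lower at late times and none higher, with a median difference of -0.09. Of 45 tested members without it, 7 were lower and 2 higher, with a median of -0.06. The promoter of Dnaja1 at chr4:40722218-40722517 (plus strand, 1 of 3 starts in the table) holds an element 124 bases before the start. That of Hspb1 at chr5:135887669-135887968 (plus strand), shown as a member with 2 elements whose RNA did not pass the test, holds them 117 and 97 bases before the start.
Dnaja1: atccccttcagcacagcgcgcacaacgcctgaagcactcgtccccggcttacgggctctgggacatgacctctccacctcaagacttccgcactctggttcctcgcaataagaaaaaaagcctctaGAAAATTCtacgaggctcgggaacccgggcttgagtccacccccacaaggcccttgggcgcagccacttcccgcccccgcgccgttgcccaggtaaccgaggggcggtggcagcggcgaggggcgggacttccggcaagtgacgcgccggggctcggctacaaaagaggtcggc
Hspb1: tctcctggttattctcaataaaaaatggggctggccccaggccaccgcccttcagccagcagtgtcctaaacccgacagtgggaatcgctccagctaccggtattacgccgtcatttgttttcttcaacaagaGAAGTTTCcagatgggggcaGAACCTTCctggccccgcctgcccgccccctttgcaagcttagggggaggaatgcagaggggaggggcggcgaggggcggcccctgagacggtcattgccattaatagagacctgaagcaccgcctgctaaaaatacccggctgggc

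In mitochondria, Hspa9 (mortalin) drives protein import and folding in the matrix. It had the largest difference of the called members, -1.21 (SE 0.18, limma adjusted p = 3.15e-05), 2.31-fold more RNA at early times. Its 12 late arrays ran from -1.51 through -0.47 to -0.18 and its 12 early arrays from -0.12 through 0.52 to 1.15. It was the only 1 of 67 members whose late and early arrays did not overlap, against 0.364% of all genes lower and 0.255% higher in this way. At 2 h its arrays read 1.15, 1.07, 0.95 and 0.79, at 3 days -1.51, -1.30, -0.38 and -0.19, at 5 days -0.61, -0.40, -0.35 and -0.84, and at 7 days -0.84, -0.18, -0.54 and -0.34, against 0.70, -0.03 and 0.04 on the untreated arrays. Its 4 probes were all lower at late times, from -2.24 to -0.58. The probe at -2.24 had a value on only 4 of the 12 late and 9 of the 12 early arrays, so the mean joins different probes on different arrays. The mitochondrial chaperonin genes Hspd1 and Hspe1 lay at -1.21 (SE 0.08) and -1.29 (SE 0.15) in the same comparison. Of 6 measured genes of mitochondrial folding these were the only 2 called.

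In the ER, Hsp90b1 (GRP94), the HSP90 of that compartment, moved the other way from Hsp90aa1. It read -0.13, 0.33 and 0.34 on the untreated arrays, -0.07, -0.08, 0.02 and 0.07 at 1 h, 0.83, 0.62, 0.34 and 0.38 at 2 h and 0.85, 1.11, 0.31 and 0.27 at 4 h. At 12 h it read 0.22, 0.45, -0.02 and 0.38 and at 24 h 0.38, 0.32, -0.22 and -0.07. At 3 days it read 0.45, 0.55, 1.17 and 0.75, at 5 days 1.16, 1.31, 1.00 and 0.96, and at 7 days 1.5, 1.38, 0.78 and 1.10. All 12 late arrays lay above all untreated arrays and above the median of the early arrays, though the Cy5 arrays of 2 and 4 h overlapped them. How many of all genes lie so was not counted. The late minus early difference was 0.62 (SE 0.11, limma adjusted p = 2.46e-04). Under quantile normalization it was 0.13 (limma adjusted p = 0.719), and with 3 days as the late time 0.34 (adjusted p = 0.24). With the rows of 5 and 7 days as deposited it was slightly below 0. This call thus rests on the normalization, on the days used and on the moving of rows.

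Fkbp9, an ER isomerase, was the other member higher at late times. Its late arrays ran from -0.03 through 0.58 to 1.08 and its early arrays from -0.50 through -0.16 to 0.23, and the difference was 0.72 (SE 0.09, limma adjusted p = 1.51e-06). Its 2 probes gave 0.65 and 0.78, and under quantile normalization it kept its call at 0.63. Fkbp1a (FKBP12), the cytosolic target of rapamycin and FK506, went the other way at -0.48 (SE 0.08, limma adjusted p = 1.36e-04), with arrays from -0.67 through -0.05 to 0.33 late and from 0.09 through 0.45 to 0.70 early. Fkbp3, a nuclear isomerase, lay at -0.46 (SE 0.12, limma adjusted p = 0.0169). It rested mostly on the Cy5 arrays, at -0.69, against -0.22 (limma adjusted p = 0.279) on the Cy3 arrays. Its call also ended with 3 days as the late time (-0.36, adjusted p = 0.27), with values not centred (-0.47, adjusted p = 0.165) and when only the arrays of these times entered the fit (adjusted p = 0.0549). Fkbp4 (FKBP52), an HSP90 co-chaperone, lay at -0.20 (SE 0.12) and did not pass. Fkbp1a and Fkbp3 each had 2 probes, and all 4 were lower at late times.

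**Figure D3:**
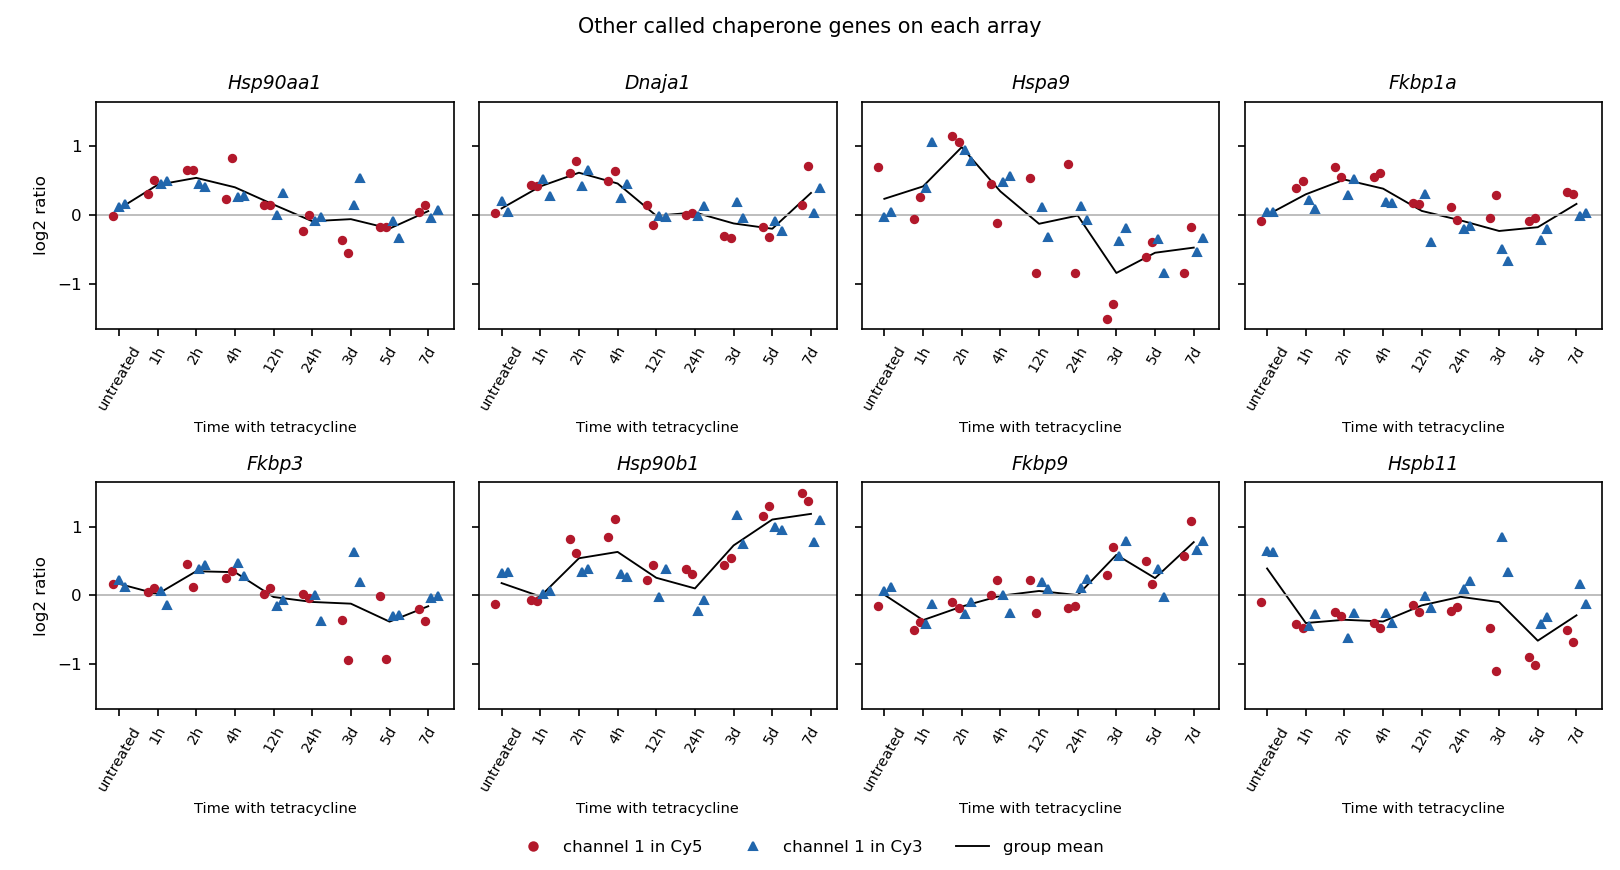
Log2 ratio (vertical axis) of the other 8 members called in any test on each array, by time with tetracycline (horizontal axis, untreated at the left). Circles are arrays with channel 1 in Cy5, triangles those in Cy3, and the line joins group means; Hsp90b1 and Fkbp9 lie higher at late than at early times, and Hspa9 lower on all 12 late arrays.

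Of the disulfide isomerases, which form and rearrange disulfide bonds, Pdia4 differed by 0.08 (SE 0.09) and Pdia6 by -0.09 (SE 0.23) between late and early times. In that comparison limma called 0 of the 3 measured genes of the family. At 5 days Pdia4 averaged 0.43 ± 0.06 and Pdia6 0.69 ± 0.40 (SD, n = 4 each), against 0.16 ± 0.18 and 0.11 ± 0.26 in untreated cells (SD, n = 3 each), and neither passed against untreated. The ER stress response element occurred in the promoters of Hsp90b1 and Pdia6 alone among the members. The promoter of Hsp90b1 at chr10:86705395-86705694 (minus strand) holds it 212 and 107 bases before the start, in capitals; it is shown as the ER member that was higher at late times.
Hsp90b1: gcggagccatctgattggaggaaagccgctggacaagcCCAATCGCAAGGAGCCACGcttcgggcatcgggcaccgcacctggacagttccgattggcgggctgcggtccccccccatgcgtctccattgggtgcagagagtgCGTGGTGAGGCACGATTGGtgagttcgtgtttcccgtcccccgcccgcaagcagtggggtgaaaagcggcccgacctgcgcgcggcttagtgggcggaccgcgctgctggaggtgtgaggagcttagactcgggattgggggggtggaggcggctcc

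Of 14 other measured genes of ER folding, 2 passed between late and early times. They were named after their values were seen: Serpinh1, the collagen chaperone, at 0.75 (SE 0.08, limma adjusted p = 4.34e-08), and Canx, the membrane lectin calnexin, at -0.39 (SE 0.12, limma adjusted p = 0.0434). Hspa5 (BiP), the ER's HSP70, lay at -0.08 (SE 0.17) and Dnajc3, an ER J-domain protein, at -0.58 (SE 0.20, limma adjusted p = 0.0784). Of 16 measured co-chaperones and heat shock regulators 0 passed, with differences from -0.74 to 0.38. The prefoldin list, whose proteins hand substrates to the chaperonin, had 2 measured genes, both below 0 and neither called.

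The 13 calls were set against the dye and the choice of days. In the Cy5 arrays alone all 13 kept their sign and 11 their call, where 6.76% of all genes were called. In the Cy3 arrays alone, where Cct3 had too few values, the other 12 kept their sign and 8 their call (7.7% of all genes). With 3 days as the late time, whose rows needed no moving, all 13 kept their sign and 10 their call (5.01%). The dyes differed at that time, however. The median of the 11 lower members was -0.64 and -0.50 on the Cy5 arrays of 3 days, but 0.14 and -0.01 on the Cy3 arrays. On the early arrays that median ran from 0.23 to 0.77, so the fall at 3 days was smaller in Cy3. With 5 and 7 days as the late times all 13 kept their sign and 12 their call (6.3%). Without turning the Cy3 arrays none of the 13 was called and 9 kept their sign. With the rows of 5 and 7 days as deposited, 12 could be tested, 11 kept their sign and 5 their call.

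**Figure D4:**
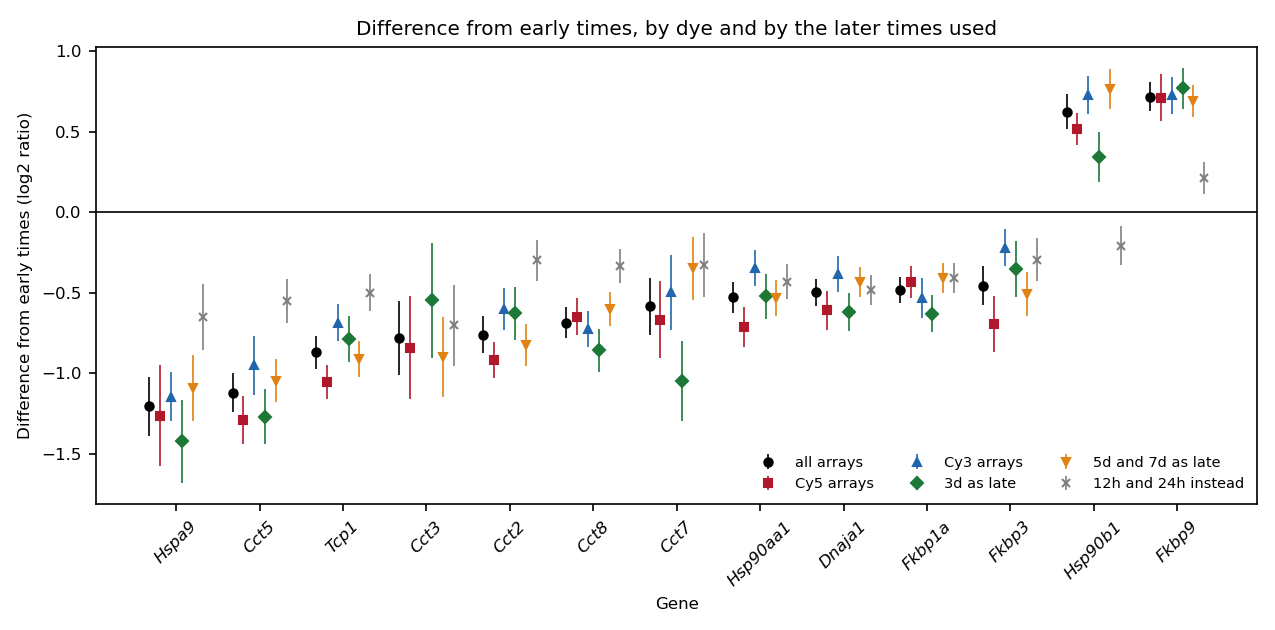
Difference from early times (log2 ratio, vertical axis) for the 13 called members (horizontal axis), with all arrays, the Cy5 or the Cy3 arrays alone, 3 days alone, 5 and 7 days, or 12 and 24 h in place of the late times. Points are limma estimates and bars are 1 SE; the 11 members lower at late times lie below 0 in every version tested, and Hsp90b1 lies below 0 at 12 and 24 h.

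Each time was also set against the 3 untreated arrays, and all 8 comparisons share these arrays. At 1, 2, 4, 12 and 24 h limma called 0 members, while 7 of 71, 10 of 72, 4 of 72, 2 of 71 and 4 of 72 had an unadjusted p under 0.05. As shares these were 9.86%, 13.9%, 5.56%, 2.82% and 5.56% of the members, against 5.11%, 6.02%, 4.28%, 4.33% and 4.48% of all genes at the same unadjusted p, so 4, 12 and 24 h were near the background. The shares of all genes that were called, with adjustment, were 0.239%, 0.549%, 0.268%, 0.0218% and 0.0219%. The mean of the early times against untreated also called 0 of 71 members, against 0.558% of all genes. At an unadjusted p under 0.05 it had 7 members, 9.86%, against 6.72% of all genes. At 3 days 2 of 69 members were called (0.5% of all genes), at 5 days 3 of 68 (1.59%) and at 7 days 3 of 68 (1.07%). The test for a change at any time called 11 of 67 members, against 5.08% of all genes, and 10 of these 11 were also among the 13 called between late and early times. The other was Cct6a (limma adjusted p = 0.0138). With only the arrays of each pair of groups in the fit, limma called 0 members at every time and at most 0.0107% of all genes.

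Against untreated, Cct5 averaged -0.80 ± 0.22 at 3 days and -0.81 ± 0.53 at 7 days (SD, n = 4 each), against 0.30 ± 0.18 (SD, n = 3) in untreated cells. The differences were -1.11 (SE 0.23, limma adjusted p = 0.0165) and -1.13 (SE 0.23, limma adjusted p = 0.00812). Cct8 was lower at 3 days by a difference of -0.83 and at 5 days of -0.79 (SE 0.18 each, limma adjusted p = 0.0257 and 0.015). Its untreated arrays read -0.04, 0.54 and 0.74, and without untreated replicate 3 or 4 both calls of Cct8 and that of Cct5 at 3 days ended. That of Cct8 at 3 days also ended without 3d replicate 4. The call of Cct5 at 7 days ended without untreated replicate 4, at -1.04 (limma adjusted p = 0.0694). Hsp90b1 averaged 1.11 ± 0.16 at 5 days and 1.19 ± 0.32 at 7 days (SD, n = 4 each), against 0.18 ± 0.27 (SD, n = 3) in untreated cells. Its differences were 0.90 and 0.98 (SE 0.21 each, limma adjusted p = 0.0168 and 0.0114), and both calls ended without untreated replicate 1, at 0.66 and 0.74. Fkbp9 was higher at 7 days, 0.78 ± 0.22 (SD, n = 4) against 0.01 ± 0.15 (SD, n = 3) in untreated cells, with a difference of 0.78 (SE 0.17, limma adjusted p = 0.0147). Its call ended without untreated replicate 3 or 4, at 0.80 and 0.82 (limma adjusted p = 0.0545 and 0.0503), and without 7d replicate 2, at 0.67 (0.0533). Of the 8 calls against untreated, 5 ended without untreated replicate 3, 6 without replicate 4 and 2 without replicate 1.

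Hspb11, named as a small heat shock protein and known as a subunit of the ciliary transport machinery, was lower at 5 days. It read -0.90, -1.01, -0.41 and -0.32 at 5 days, against -0.10, 0.65 and 0.63 on the untreated arrays, with a difference of -0.98 (SE 0.24, limma adjusted p = 0.0252). Of the untreated arrays only replicates 3 and 4, the turned Cy3 arrays, were high, and without either the call ended at -0.92 and -0.93. It also ended without 5d replicate 2 or 3 (limma adjusted p = 0.0632 and 0.0509). Its early arrays lay at -0.62 to -0.24, and its late minus early difference did not pass (0.03, SE 0.13, limma adjusted p = 0.952).

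Because the untreated arrays carry untreated RNA in both channels by their labels, the treated arrays were also tested against a ratio of 0. At 2 h 10 of 72 members then lay above 0 and none below, against 2.32% of all genes above. They were Hspa9 at 0.99, Tcp1 at 0.87, Cct8 at 0.74, Cct5 at 0.72, Cct2 at 0.65, Dnaja1, Hspa1b, Hsp90b1, Hsp90aa1 and Fkbp1a, the last 5 from 0.52 to 0.62. The untreated arrays themselves averaged above 0 for 9 of these 10, with 0.41 for Cct8, 0.30 for Cct5, 0.29 for Cct2, 0.28 for Tcp1, 0.23 for Hspa9 and 0.19 for Hspa1b, and none of the 10 passed against untreated at 2 h. These means join 1 Cy5 array and 2 turned Cy3 arrays without adjustment for dye. Cct8 read -0.04 in Cy5 against 0.54 and 0.74 in Cy3, and Tcp1 -0.08 against 0.42 and 0.48. Of the 10 only Hspa9 was higher in Cy5, at 0.70 against -0.03 and 0.04. At 1 h 2 members lay above 0 (0.387% of all genes) and at 4 h 3 (0.778%), all among these 10. At 12 and 24 h limma called 0 members against 0, and 0.368% and 0.347% of all genes. At 3 days 5 of 69 members lay above and 4 below, 13% of the members, against 5.26% of all genes in either direction. At 5 and 7 days 2 of 68 members lay above and 2 below each. That is 5.88% of the members at both times, near the 4.88% and 5.56% of all genes. The 4 below at 3 days were Hspa9, Cct7, Cct5 and Cct8, those at 5 days Hspb11 and Tcp1 and those at 7 days Cct5 and Cct2. Hsp90b1 lay above 0 at 3, 5 and 7 days. The others above 0 were Fkbp9, Hspa1b, Dnajc28 and Cct6a at 3 days, Pdia4 at 5 days (0.43, limma adjusted p = 0.0265) and Fkbp9 at 7 days.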

How the data were processed

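RNA of 36 dual-colour cDNA arrays was compared as the log2 ratios that the authors deposited in 1 table. Software, background correction, normalization and the numerator are not given in the sources used here. Of 20355 probe rows, 14030 had 1 gene symbol in the platform annotation, 5 several and 6320 none. The 2807 values above 12 were dropped as a ceiling, arrays were centred on their median, Cy3 arrays multiplied by -1 (a choice the files do not settle), and probes averaged per gene. Before turning, arrays of opposite dye in a group had mean correlations of -0.05 at 2 h, -0.02 at 24 h, -0.011 at 1 h and -0.005 at 5 days. They were 0.025 at 12 h, 0.026 at 7 days, 0.072 at 4 h, 0.158 at 3 days and 0.415 in untreated cells. Turning reverses these signs, so over all probes turned Cy3 arrays followed Cy5 arrays weakly or ran against them. The cause was not tested. Untreated replicates 1 and 2 differed by 0.771 (SD 0.000506) over 19840 values, far less than other arrays of a group differ, and were counted once. In all arrays of 5 and 7 days values had slid by 1 row at each of 4 points, pooled near rows 6042, 7335, 7856 and 18337, and 5d replicate 1 by 1 row throughout; they were moved back. Rows near these points, and the last rows from 20181, were dropped for both times.

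limma 3.58.1 in R 4.3.3 fitted all genes over 35 arrays with group means and a dye effect, a minimum of 3 values per group and Benjamini-Hochberg adjustment over all genes tested, called under 0.05. The fit pools the variance of noisy late and quieter early arrays. The scripts were tested on simulated data. Alternatives covered turning, dye terms, centring, quantile normalization, array weights, the arrays entering the fit, the minimum of values, the ceiling, the mean of probes, the rows, the untreated columns, a replicate block and each array left out. Splits by dye and other choices of the late times were added after seeing the data. The members and gene lists were chosen with earlier results of these data known. Named genes were the 15 members called in any test, the 2 of each family with the smallest p for any time, and 22 of 26 fixed names that had a probe, 31 members in all. Same-numbered arrays did not deviate together, so numbers were not taken as pairs. Protein sequences were not used here.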

Additional observations from a re-analysis of the deposited data

Results flagged for a closer look

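The late minus early differences of 13 members passed limma's test of the difference itself. They were -1.21 for Hspa9, -1.12 for Cct5, -0.87 for Tcp1, -0.78 for Cct3, -0.76 for Cct2, -0.69 for Cct8, -0.58 for Cct7, -0.53 for Hsp90aa1, -0.50 for Dnaja1, -0.48 for Fkbp1a, -0.46 for Fkbp3, 0.62 for Hsp90b1 and 0.72 for Fkbp9.

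Among the 15 members called in any test, 119 groups of 4 arrays were searched for an array far from the other 3, and 4 were found, where chance gives about 1 in 20 groups. Cct6a read 0.42 on 1h replicate 3 and -0.59 on 7d replicate 1, Fkbp3 read -0.37 on 24h replicate 4, and Hsp90aa1 read 0.83 on 4h replicate 2.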

How the results depend on the processing

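Across the alternatives the count of members called between late and early times stayed within 1.5 times of 13 except for 3 settings. It was 1 with the Cy3 arrays not turned (2.37% of all genes called), 6 with rows as deposited (4.05%) and 3 with 12 and 24 h in place of the late times (0.68%), a choice made after seeing the data. Leaving out 1 array at a time gave 11 to 15. The test for a change at any time, with 11 members called, gave 4 without turning (5.14% of all genes), 4 with values not centred (2.37%) and 5 with rows as deposited (3.39%), and 10 to 13 without 1 array.

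The counts against untreated moved most. With array weights they were 1 at 1 h, 11 at 2 h, 2 at 4 h, 2 at 12 h, 3 at 24 h, 5 at 5 days and 3 for the early times, where 4.63%, 8.35%, 4.15%, 2.9%, 3.19%, 3.7% and 6.92% of all genes were called; the members' shares were 15.3% at 2 h, 7.35% at 5 days and 1.41% to 4.23% at the others. Without turning they were 1 at 4, 12 and 24 h and at 5 days, 5 at 3 days and 3 for the early times; at 3 days that is 7.25% of the members, below the 12.9% of all genes called, and the shares of all genes at the others were 0.76%, 1.46%, 0.765%, 2.11% and 2.95%. Against a ratio of 0 they were 2 at 1 h, 10 at 2 h, 3 at 4 h, 9 at 3 days and 11 for the early times (0.774%, 2.61%, 0.962%, 5.26% and 4.26% of all genes). With quantile normalization they were 1 at 1 h, 3 at 2 h, 1 at 4 h, 0 at 3 and 7 days and 2 for the early times (0.989%, 1.81%, 0.857%, 0.0114%, 0.161% and 1.72%). With a fit on the 2 groups' own arrays they were 0 at 3, 5 and 7 days and 1 for the early times (1.19%), and with a dye effect for each group 1 at 2 h, 6 at 5 days and 1 for the early times (1.05%, 2.53% and 0.996%). Rows as deposited gave 0 at 3 days, 1 at 5 days and 0 at 7 days (0.171%, 0.455% and 0.875%), values not centred 1 at each of these times (0.125%, 0.836% and 0.403%), and no dye effect 1 at 3 days (0.33%). Without 1 array the counts ran from 0 to 1 at 1, 2, 4 and 12 h and for the early times, 0 to 2 at 24 h, 0 to 4 at 3 days and 1 to 4 at 5 and 7 days.

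Of the 21 differences called for single genes, 9 had the opposite sign without turning. Between late and early times these were Cct8 at 0.038, Fkbp1a at 0.050, Fkbp9 at -0.007 and Hsp90b1 at -0.11. Against untreated they were Cct5 at 0.063 at 3 days and 0.45 at 7 days, Cct8 at 0.67 at 3 days and 0.49 at 5 days, and Hspb11 at 0.25 at 5 days. With rows as deposited, Cct5 at 7 days was at 1.54, Hsp90b1 at 7 days at -0.076 and between late and early times at -0.015. With 12 and 24 h in place of the late times Hsp90b1 was at -0.21. With the replicate number as a block, the counts were 2, 3 and 3 at 3, 5 and 7 days, 11 for any time and 13 between late and early times, and it changed none of the 21 calls. Signal over background is not in the table, so dim probes could not be set apart, and the cause of these changes was not tested.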
